A study of Mus musculus with 6 samples.

Results

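The genes described here are the chemokines, the interleukins and 5 further cytokines of 393P, an epithelial murine lung adenocarcinoma cell line. They were chosen by symbol alone, as every row named Ccl, Cxcl or Cx3cl with a number, every row named Il with a number and at most an a or b after it, and Csf1, Csf2, Csf3, Tnf and Tslp. The rule found 71 rows (70 symbols, since Ccl19 is listed at 2 loci) of the 24214 RefSeq features in the tables. The study compared 393P cells stably transfected with a ZEB1 expression vector (393P_ZEB1) with 393P cells carrying the empty vector (393P_vector), both grown in culture in RPMI-1640 with fetal calf serum. The labels give the source as KP lung cancer cells of strain C57BL/6 and do not say from which species the ZEB1 coding sequence came. Total RNA from 3 samples of each transfectant was sequenced on the SOLiD platform. The labels do not say that the 3 samples of a group were separate cultures, so the p-values measure only the spread between these samples.

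Chemokines are small secreted proteins that direct the migration of leukocytes through receptors coupled to G proteins, and most fall into the CXC and CC families by the spacing of their first cysteines. Interleukins and colony stimulating factors act through other receptor families and govern the growth, survival and activation of leukocytes, and several are also made by epithelial and tumour cells. In lung tumours these proteins are known for recruiting neutrophils, monocytes and lymphocytes. ZEB1 is a zinc finger transcription factor that binds E-box sequences, represses epithelial genes and drives epithelial-to-mesenchymal transition.

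Levels are given as CPM, the reads of a gene per 1000000 reads of the normalised library size. Total counts were between 54442450 and 79158012 per sample, so that 3 counts corresponded to between 0.0361 and 0.0561 CPM. Zeb1 was 2.40-fold higher in 393P_ZEB1, 7 of 8 epithelial markers were lower and 5 of 5 mesenchymal markers, Zeb1 itself among them, were higher. Zeb1 and Cdh2 lie on chromosome 18, whose tested genes had a median log2 fold change of 0.64. The log2 fold change of Zeb1 was 1.26, or 0.63 less this median, and that of Cdh2 was 2.04, or 1.41 less it. Vector replicate 3 stood apart from the other vector libraries. It differed by 2-fold or more from replicates 1 and 2 at 5% and 5.51% of genes, against at most 0.18% between other pairs of a group. The 2 transfectants also differed in 4 Y-linked genes, with summed counts between 5861 and 10713 in vector samples and between 30 and 38 in ZEB1 samples, and in the median fold change of some chromosomes. A difference between these lines that did not come from ZEB1 cannot be told apart from one that did. Of 18 markers of immune cells, 6 passed the filter on low counts, 2 of these fell and none rose. The summed level of the 18 was between 5.66 and 5.83 CPM in vector samples and between 2.88 and 3.51 CPM in ZEB1 samples, and the leukocyte marker Ptprc had a mean of 0.258 CPM in 393P_vector and 0.198 CPM in 393P_ZEB1. The 2 that fell were Csf1r (mean 0.86 CPM in 393P_vector and 0.241 CPM in 393P_ZEB1) and Itgax (0.352 and 0.0975 CPM). Cd68 (2.04 and 1.03 CPM), Itgam (0.583 and 0.367 CPM) and Cd4 (0.997 and 0.741 CPM) did not pass the test. The macrophage gene Lyz2 had 3 counts in all 6 libraries together. The part of such cells in the differences below was not tested. In bulk RNA, fewer cells of a type and less RNA per cell cannot be told apart.

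Of the 71 rows, 29 passed the filter on low counts and were tested, and 42 did not. In the edgeR quasi-likelihood test across 13892 genes, at an adjusted p threshold of 0.05, 14 members were higher in 393P_ZEB1, 7 were lower and 8 did not pass. Of all tested genes 18.3% were higher and 19.3% were lower, 37.6% in either direction. The groups did not overlap for 23 of the 29 members, 15 higher and 8 lower, against 52.8% of all tested genes, 26.3% higher and 26.5% lower. The median log2 fold change was 0.55 over the tested members and -0.02 over all tested genes. Some members passed the filter through the group in which they were high, so the filter favoured a difference in them. Passing only through a group means here that all of its libraries, and not all of the other group, reached the filter's level. Of the 29, 15 were above the filter's level of 0.17 CPM in all 6 libraries, of which 7 were higher, 1 was lower and 7 did not pass. A further 7 (Ccl2, Ccl7, Ccl20, Cxcl15, Cxcl17, Il7 and Tslp) were above it in all libraries of 393P_ZEB1 only, and all 7 were called higher. Another 6 (Il24, Il23a, Csf3, Cxcl12, Il1a and Ccl6) were above it in all libraries of 393P_vector only, and all 6 were called lower. Differences of at least 8-fold that passed the test were found for 8 members and for 4.3% of all tested genes. Of the 8, however, 7 reached 0.17 CPM in all libraries only of the group where they were high, Cxcl16 being the exception. Nothing is therefore read from this contrast.

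**Figure D1:**
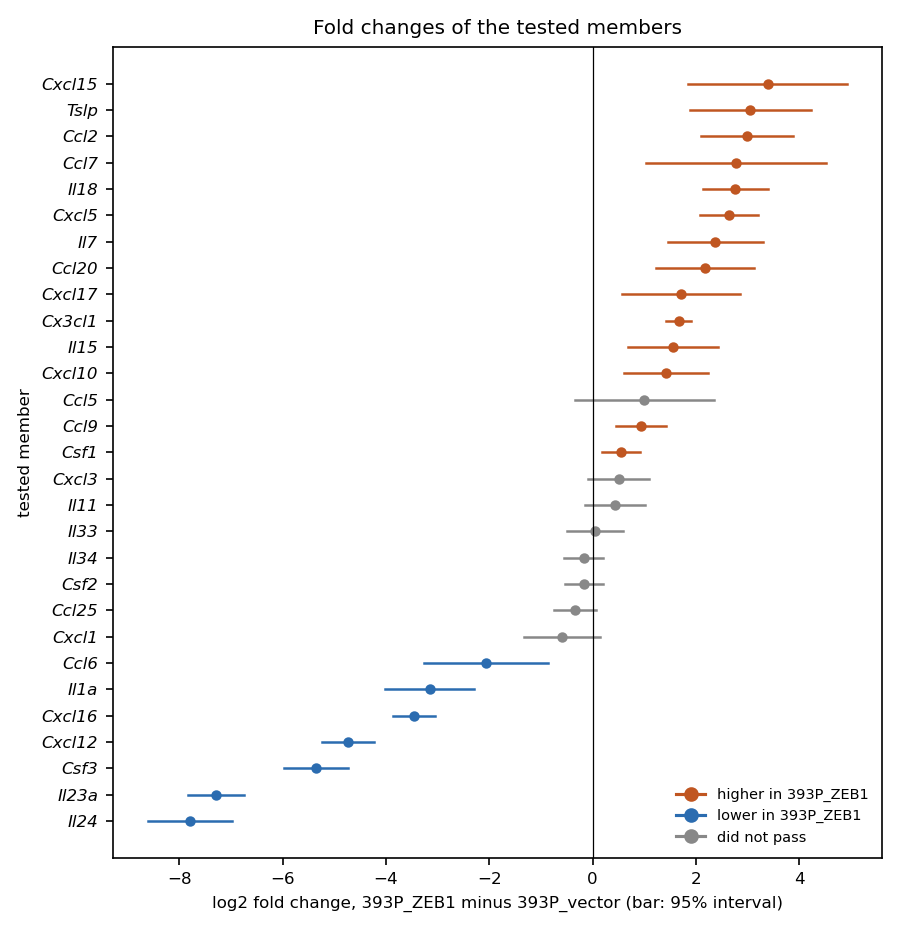
Log2 fold change of each of the 29 tested members (x axis, 393P_ZEB1 minus 393P_vector, with its 95% interval from edgeR), ordered from the highest to the lowest. Orange members were higher in 393P_ZEB1, blue members were lower and grey members did not pass the test, and the values run from 3.39 for Cxcl15 to -7.80 for Il24.

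The largest decreases were those of 2 interleukins that were abundant in the vector cells. Both passed the filter only through 393P_vector. Il24 encodes a cytokine of the interleukin-10 family that signals through receptors built with Il20rb. It had 18.8, 19.4 and 29.7 CPM in 393P_vector and 0.0561, 0.144 and 0.0983 CPM in 393P_ZEB1, where these values rest on 3, 8 and 6 counts. The groups lay far apart, and the ZEB1 libraries were close to the level of 3 counts. The log2 fold change was -7.80 ± 0.35 (SE, n = 3 per group, edgeR adjusted p = 3.15e-06), from a mean of 22.7 ± 6.12 CPM (SD). Reads were present on 6 of the 6 exons of Il24 in vector samples, counting exons with over 10 reads, and on 0 in ZEB1 samples. The counts in ZEB1 samples were too few for any exon to exceed 10 reads, so this 0 adds nothing to them. The gene lies on the minus strand of chromosome 1 at 130882074 to 130887411 (GRCm38, as are all coordinates here), next to Il20, Il19 and Il10, none of which passed the filter.

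Il23a encodes the subunit that, joined to the product of Il12b, forms interleukin-23, a cytokine that sustains T cells producing interleukin-17. Its level was 15.4, 15.5 and 14.1 CPM in 393P_vector and 0.131, 0.072 and 0.0819 CPM in 393P_ZEB1. The vector libraries differed little among themselves, and all of the ZEB1 libraries were below 1 CPM. The log2 fold change was -7.28 ± 0.23 (SE, edgeR adjusted p = 7.32e-07), a mean 158-fold lower. Il12b had 3, 3 and 1 counts in 393P_vector and 4, 3 and 0 in 393P_ZEB1, too few to be tested, so the partner subunit was close to the limit of detection in both lines. Il23a lies on chromosome 10 at 128296140 to 128298084, minus strand. For each of the 21 called members the exact permutation test of log2 CPM gave p = 0.1, the smallest that 3 samples against 3 allow.

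Among the colony stimulating factors, Csf3 was nearly lost, Csf1 rose slightly and Csf2 did not pass the test. Csf3 encodes granulocyte colony stimulating factor, which drives the production and release of neutrophils. Its level was 5.05, 6.59 and 4.41 CPM in 393P_vector and 0.131, 0.126 and 0.131 CPM in 393P_ZEB1. The groups were well apart, at a log2 fold change of -5.35 ± 0.27 (SE, edgeR adjusted p = 4.99e-06) or 41.4-fold. Reads lay on 5 exons of Csf3 in each vector library and on none above 10 reads in the ZEB1 libraries, whose 7, 7 and 8 counts allowed none. Csf3 passed the filter only through 393P_vector. The gene is on chromosome 11 at 98701313 to 98703629, plus strand.

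Csf1 and Il34 encode the 2 ligands of Csf1r, the receptor that maintains macrophages. Csf1 had 400, 398 and 275 CPM in 393P_vector and 554, 492 and 522 CPM in 393P_ZEB1. The 3 ZEB1 libraries were all higher, and vector replicate 3 was the lowest of the 6. The log2 fold change of Csf1 was 0.55 ± 0.16 (SE, edgeR adjusted p = 0.03), from 357 ± 71.4 to 523 ± 31.2 CPM (SD). Csf1r itself averaged 0.86 CPM in 393P_vector and 0.241 CPM in 393P_ZEB1. The call of Csf1 did not hold when any one ZEB1 library was left out, with adjusted p between 0.0642 and 0.103. Il34 had 38.1, 44 and 30.3 CPM in 393P_vector and 29, 34.8 and 35.9 CPM in 393P_ZEB1, and these ranges overlapped. Its log2 fold change of -0.17 had a 95% interval from -0.55 to 0.21 (edgeR adjusted p = 0.443). Csf2, which encodes granulocyte-macrophage colony stimulating factor, had 6.77, 6.17 and 7.54 CPM in 393P_vector and 6.93, 5.62 and 5.62 CPM in 393P_ZEB1. These values overlapped too, with an interval from -0.54 to 0.20 (edgeR adjusted p = 0.428).

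Tslp encodes thymic stromal lymphopoietin, an epithelial cytokine that acts on dendritic cells and innate lymphoid cells. It had 0.0177, 0.153 and 0.0963 CPM in 393P_vector and 0.598, 0.99 and 0.704 CPM in 393P_ZEB1. The groups did not overlap, but the vector values rest on 1, 9 and 8 counts. Tslp passed the filter only through 393P_ZEB1. The span of 4930455D15Rik, introns included, covers all of Tslp on the opposite strand, and 4930455D15Rik was too low to be tested. The log2 fold change was 3.05 ± 0.50 (SE, edgeR adjusted p = 0.00246). Genes of its chromosome, 18, had a median log2 fold change of 0.64, and the difference for Tslp less this median was 2.42. Tnf, the other gene of this class, had 13 counts in all 6 libraries and was not tested.

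**Figure D2:**
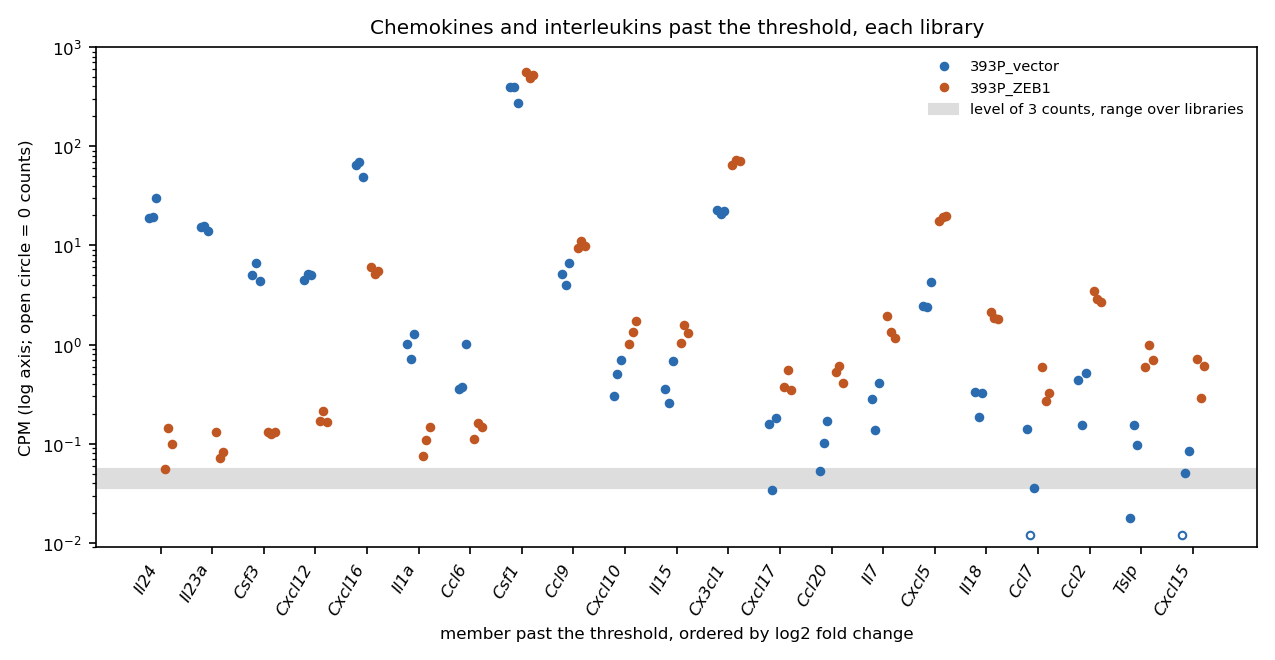
CPM of the 21 members that passed the test in each of the 6 libraries (y axis, log scale, one point per library, blue for 393P_vector and orange for 393P_ZEB1, open circles for 0 counts). The grey band is the level of 3 counts, 0.0361 to 0.0561 CPM, and the ZEB1 libraries of Il24 and Il23a lie at or just above it while those of Csf1 lie between 492 and 554.

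The chemokines of the CXC family with the glutamate-leucine-arginine motif attract neutrophils through Cxcr2. Of the 5 such rows within the rule 4 were tested, and 2 of these rose while none fell. Of all tested genes 18.3% were higher and 19.3% were lower. Of the 2 members that rose, Cxcl15 passed the filter only through 393P_ZEB1. Outside the rule, Ppbp, which encodes a further Cxcr2 ligand, fell (log2 fold change -3.52, edgeR adjusted p = 0.000562). Cxcl5 had 2.47, 2.4 and 4.25 CPM in 393P_vector and 17.7, 19.4 and 19.9 CPM in 393P_ZEB1. The ZEB1 libraries lay close together, and vector replicate 3 was the highest of its group. The log2 fold change was 2.64 ± 0.24 (SE, edgeR adjusted p = 0.000121), a mean 6.25-fold higher. Cxcl15, known as lungkine from its expression in lung epithelium, had 0, 0.051 and 0.0843 CPM in 393P_vector and 0.71, 0.288 and 0.606 CPM in 393P_ZEB1. It remained a low gene in both, with 0, 3 and 7 counts in the vector libraries, and its log2 fold change was 3.39 ± 0.66 (SE, edgeR adjusted p = 0.00552). Without vector replicate 3 it was 4.25.

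The other members of this class did not pass. Cxcl1, a major neutrophil chemoattractant of the mouse, had 3.43, 2.43 and 5.87 CPM in 393P_vector and 2.37, 2.81 and 2.65 CPM in 393P_ZEB1. Vector replicate 3 stood above the rest, and the interval of the log2 difference was -1.32 to 0.14 (edgeR adjusted p = 0.181). Cxcl3 had 1.29, 1.04 and 1.82 CPM in 393P_vector and 2, 1.66 and 2.24 CPM in 393P_ZEB1. The ranges overlapped, with an interval from -0.09 to 1.10 (edgeR adjusted p = 0.162). Cxcl2 had 29 counts in all and was not tested. Cxcl1, Cxcl2 and Cxcl3 are close paralogs, and how reads shared between them were counted is not stated, so their separate levels are uncertain.

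These genes lie together on chromosome 5, in the order Cxcl5, Ppbp, Pf4, Cxcl3, Cxcl15, Cxcl1 and Cxcl2 on the plus strand, and neighbours in it moved in opposite directions. Ppbp, which encodes another ligand of Cxcr2 and lies 6892 bases beyond Cxcl5, had 8.0, 7.05 and 19.7 CPM in 393P_vector and 1.18, 0.936 and 0.917 CPM in 393P_ZEB1. Its groups did not overlap, although vector replicate 3 was more than 2-fold above the other vector libraries. The log2 fold change of Ppbp was -3.52 ± 0.43 (SE, edgeR adjusted p = 0.000562), against the 2.64 of Cxcl5. Cxcl5 spans 90759299 to 90761625 and Cxcl15 spans 90794534 to 90803067.

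**Figure D3:**
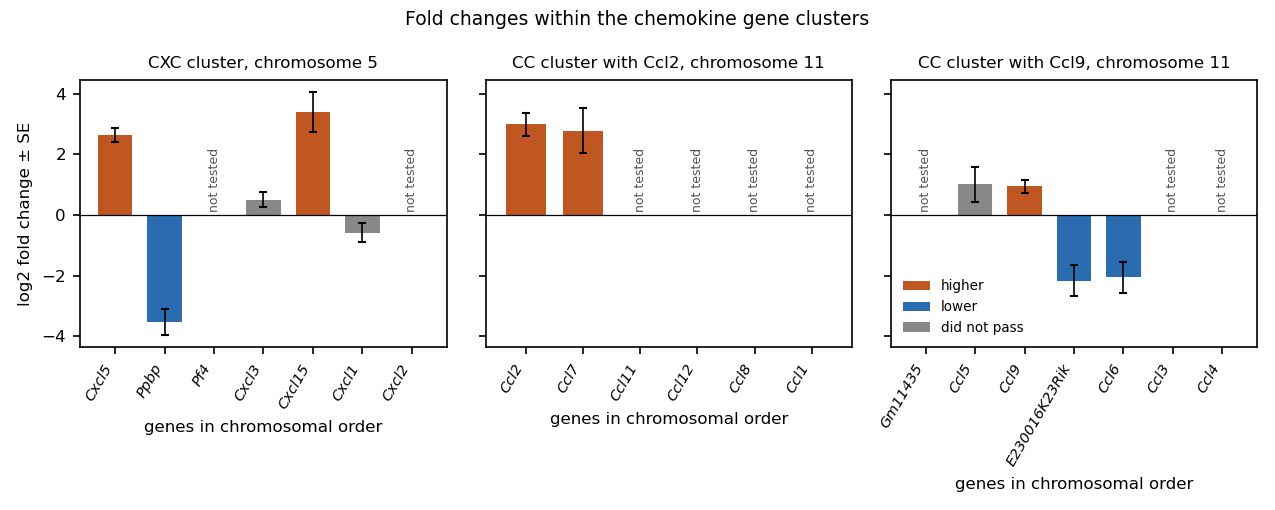
Log2 fold change with its SE (y axis) for genes in chromosomal order (x axis) in 3 chemokine clusters on chromosomes 5 and 11, with orange for higher in 393P_ZEB1, blue for lower, grey for not past the test, and genes left out by the filter marked as not tested. On chromosome 5 Cxcl5 (2.64) and Ppbp (-3.52) are neighbours, and on chromosome 11 Ccl9 (0.94) and Ccl6 (-2.06) lie close together.

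The remaining CXC and CX3C chemokines split by direction. Cxcl12 encodes the ligand of Cxcr4 and Cxcr7 that retains haematopoietic cells in the bone marrow. It had 4.47, 5.17 and 5.01 CPM in 393P_vector and 0.168, 0.216 and 0.164 CPM in 393P_ZEB1. All ZEB1 libraries were far below all vector libraries, and the log2 fold change was -4.73 ± 0.22 (SE, edgeR adjusted p = 3.35e-06), 26.7-fold lower. Cxcl12 passed the filter only through 393P_vector. The gene lies on chromosome 6 at 117168535 to 117181368, plus strand, and the tested genes of chromosome 6 had a median log2 fold change of -0.36.

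Cxcl16 encodes a transmembrane chemokine that is shed from the cell surface and binds Cxcr6. Its level was 64.2, 69.5 and 48.4 CPM in 393P_vector and 6.04, 5.13 and 5.5 CPM in 393P_ZEB1. The decrease was 10.9-fold in the mean, at a log2 fold change of -3.45 ± 0.17 (SE, edgeR adjusted p = 5.42e-06), and Cxcl16 was still read on 5 of its 5 exons in every library. On chromosome 11, at 70454234 to 70459984 on the minus strand, its end overlaps 363 bases of Zmynd15 on the opposite strand. Zmynd15 was itself much lower in level, with a mean of 0.841 CPM in 393P_vector and 0.244 CPM in 393P_ZEB1. The overlaps given here are between gene spans, introns included, and whether exons overlap was not tested. Whether the counting used strand is not stated, so reads from any exons shared on opposite strands cannot be told apart.

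Cx3cl1 encodes fractalkine, the other chemokine with a transmembrane stalk, which binds Cx3cr1 and both tethers and attracts monocytes and lymphocytes. It had 22.8, 20.7 and 22.1 CPM in 393P_vector and 65.2, 71.9 and 71 CPM in 393P_ZEB1. Both groups were tight, and the mean rose 3.17-fold, at a log2 fold change of 1.66 ± 0.11 (SE, edgeR adjusted p = 1.54e-05). Cx3cl1 lies on chromosome 8 at 94772180 to 94782426, between Ccl22 and Ccl17, which had 15 and 34 counts in all and were not tested.

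Cxcl10 encodes an interferon-induced ligand of Cxcr3. It had 0.3, 0.51 and 0.698 CPM in 393P_vector and 1.01, 1.35 and 1.74 CPM in 393P_ZEB1. The groups did not overlap, and the log2 fold change was 1.42 ± 0.35 (SE, edgeR adjusted p = 0.0154). The call was lost without ZEB1 replicate 3 (adjusted p = 0.0623 in edgeR). All of Cxcl10 lies inside the span of Art3 on the opposite strand, and Art3 was itself too low to be tested. Of the other Cxcr3 ligands, Cxcl9 had 30 counts in all and Cxcl11 had 23, and neither was tested. Cxcl17, a chemokine of mucosal tissues, had 0.159, 0.034 and 0.181 CPM in 393P_vector and 0.374, 0.558 and 0.344 CPM in 393P_ZEB1. Its log2 fold change of 1.71 ± 0.49 (SE, edgeR adjusted p = 0.0291) rests on 2 to 31 counts per library. The call was lost without vector replicate 1 or any 1 ZEB1 library (adjusted p between 0.0513 and 0.105 in edgeR), and in 7 of 15 alternatives in all, and Cxcl17 passed the filter only through 393P_ZEB1. The span of an RNA gene, 4732471J01Rik, covers all of Cxcl17 on the opposite strand, and this RNA gene did not pass the test.

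Of the 20 rows of CC chemokines 7 were tested, and 4 rose and 1 fell, against 18.3% higher and 19.3% lower of all tested genes. Of these, Ccl2, Ccl7 and Ccl20 passed the filter only through 393P_ZEB1, and Ccl6 only through 393P_vector, the groups in which they were high. Ccl2 and Ccl7, which attract monocytes through Ccr2, are neighbours on the plus strand of chromosome 11, 8259 bases apart. Ccl2 had 0.442, 0.153 and 0.518 CPM in 393P_vector and 3.48, 2.9 and 2.65 CPM in 393P_ZEB1. The groups were well apart, and the mean rose 8.12-fold, at a log2 fold change of 2.99 ± 0.38 (SE, edgeR adjusted p = 0.000683). Ccl7 had 0.141, 0 and 0.0361 CPM in 393P_vector and 0.598, 0.27 and 0.328 CPM in 393P_ZEB1. Its log2 fold change was 2.78 ± 0.75 (SE, edgeR adjusted p = 0.0226), with 8, 0 and 3 counts in the vector libraries. The value was 4.13 without vector replicate 1, and the call was lost without ZEB1 replicate 1 (edgeR adjusted p = 0.0934) or ZEB1 replicate 3 (0.0524). The next genes of the cluster, Ccl11, Ccl12, Ccl8 and Ccl1, had at most 6 counts each in all 6 libraries.

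Ccl20 encodes the ligand of Ccr6, which attracts dendritic cells and T cells producing interleukin-17. It had 0.053, 0.102 and 0.169 CPM in 393P_vector and 0.523, 0.612 and 0.409 CPM in 393P_ZEB1. The libraries of 393P_ZEB1 were all higher, at a log2 fold change of 2.17 ± 0.41 (SE, edgeR adjusted p = 0.00465), and the level stayed below 1 CPM. Ccl9 and Ccl6 encode mouse chemokines that bind Ccr1 and lie close together in the other cluster of chromosome 11. Ccl9 had 5.12, 3.98 and 6.7 CPM in 393P_vector and 9.36, 11.1 and 9.89 CPM in 393P_ZEB1. It rose, at a log2 fold change of 0.94 ± 0.21 (SE, edgeR adjusted p = 0.00981). Genes of chromosome 11 had a median log2 fold change of 0.27, and the difference for Ccl9 less this median was 0.67. The call of Ccl9 was lost in the edgeR test against a fold change of 1.5 (adjusted p = 0.109).

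Ccl6 had 0.353, 0.374 and 1.01 CPM in 393P_vector and 0.112, 0.162 and 0.147 CPM in 393P_ZEB1. The groups did not overlap, vector replicate 3 was the highest, and the log2 fold change was -2.06 ± 0.52 (SE, edgeR adjusted p = 0.0167). Without vector replicate 3 the value was -1.35, and the call was lost when any 1 ZEB1 library was left out (adjusted p between 0.0532 and 0.0743 in edgeR). All 5202 bases of Ccl6 lie inside the span of E230016K23Rik, a gene on the opposite strand whose log2 fold change was -2.17. Whether exons of the pair overlap, so that reads could be shared, was not tested. Ccl25, a chemokine for T cells of the gut, had 2.49, 2.52 and 3.08 CPM in 393P_vector and 2.22, 2.05 and 2.15 CPM in 393P_ZEB1. Its groups did not overlap, but its log2 fold change of -0.33 did not pass (edgeR adjusted p = 0.169, interval -0.74 to 0.07). Ccl5, a chemoattractant of T cells, averaged 0.207 CPM in 393P_vector and 0.433 CPM in 393P_ZEB1 and did not pass either, with a log2 fold change of 1.00 and adjusted p = 0.214 in the same edgeR test, although it passed without vector replicate 3 (1.73, adjusted p = 0.0304).

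Of the interleukin-1 family, Il18 rose, Il1a fell and Il33 did not pass. Il18, made as a precursor that caspase-1 cleaves and known for inducing interferon-gamma, had 0.336, 0.187 and 0.325 CPM in 393P_vector and 2.15, 1.84 and 1.82 CPM in 393P_ZEB1. The groups were well apart, with a mean 6.85-fold higher and a log2 fold change of 2.76 ± 0.27 (SE, edgeR adjusted p = 0.000163). Il1a, whose product binds Il1r1, had 1.01, 0.714 and 1.28 CPM in 393P_vector and 0.0748, 0.108 and 0.147 CPM in 393P_ZEB1. All ZEB1 libraries were lower, at a log2 fold change of -3.15 ± 0.37 (SE, edgeR adjusted p = 0.000427). Il1a passed the filter only through 393P_vector. The span of a gene on the opposite strand, Gm14023, overlaps 8217 bases of that of Il1a, and the log2 fold change of Gm14023 was 0.27. Il33, a nuclear cytokine released from damaged epithelium, had 11.6, 11.6 and 20.1 CPM in 393P_vector and 16.7, 15.1 and 13.1 CPM in 393P_ZEB1. Vector replicate 3 was the highest of the 6, and the interval was -0.50 to 0.60 (edgeR adjusted p = 0.895).

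Il7 and Il15 encode cytokines that support lymphocytes through receptors with the common gamma chain. Il7 had 0.283, 0.136 and 0.409 CPM in 393P_vector and 1.94, 1.33 and 1.16 CPM in 393P_ZEB1. All ZEB1 libraries were higher, at a log2 fold change of 2.38 ± 0.40 (SE, edgeR adjusted p = 0.00259). Il7 passed the filter only through 393P_ZEB1. Il15 had 0.353, 0.255 and 0.686 CPM in 393P_vector and 1.05, 1.57 and 1.31 CPM in 393P_ZEB1. It rose as well, at 1.56 ± 0.38 on the log2 scale (SE, edgeR adjusted p = 0.014), a call lost without ZEB1 replicate 2 (adjusted p = 0.0552). Il11, a cytokine that signals through Il6st, averaged 0.625 CPM in 393P_vector and 0.845 CPM in 393P_ZEB1, with groups that did not overlap and a log2 fold change of 0.43 that did not pass (edgeR adjusted p = 0.215).

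Of the 42 rows that were not tested, 3 had no count in any library (both rows of Ccl19, and Il28a), 21 had 1 to 10 counts in all 6 libraries together and 18 had more than 10. No member of this set exceeded 12 counts in any library. The most counted were Ccl28 with 40 counts in all, Il16 with 37, Ccl17 with 34 and Cxcl9 with 30. Well known cytokines such as Il6 with 15 counts, Tnf with 13 and Il10 with 9 were in this set. At this depth a difference in them was not detectable, which is not a statement that it is absent. When the filter was left out, 39 of the 42 could be fitted and 0 passed the edgeR test at the adjusted threshold, while Cxcl2 and Il1b, 2 of the 39, had an unadjusted p below 0.05, and no other tool was run without the filter.

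To compare levels between genes, CPM was divided by the exon length in kilobases. On this scale Csf1 was the most abundant member in both lines, at a mean of 81.0 CPM per kb in 393P_vector and 118 in 393P_ZEB1. It made up 44.6%, 43.6% and 34.0% of the sum over all members in the vector libraries and 59.2%, 54.9% and 56.6% in the ZEB1 libraries. Behind it the order changed. In 393P_vector the next were Cxcl16 at 24.9 CPM per kb, Il34 at 20.5, Il24 at 20.4 and Il23a at 11.1. The ranges of Cxcl16, Il34 and Il24 over the vector libraries overlapped, and Il23a lay below them. In 393P_ZEB1 the next were Cx3cl1 at 22.1, Il34 at 18.2 and Cxcl5 at 11.5. Cxcl16 moved from rank 2 to rank 10 and Il24 from rank 4 to rank 28. The sum over all members was 203.3, 206.5 and 183.5 CPM per kb in 393P_vector and 212.2, 203.2 and 209 in 393P_ZEB1, and these ranges overlapped. Without Csf1 the sum was 113, 116 and 121 CPM per kb in 393P_vector and 86.6, 91.7 and 90.8 in 393P_ZEB1, and these ranges did not overlap.

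**Figure D4:**
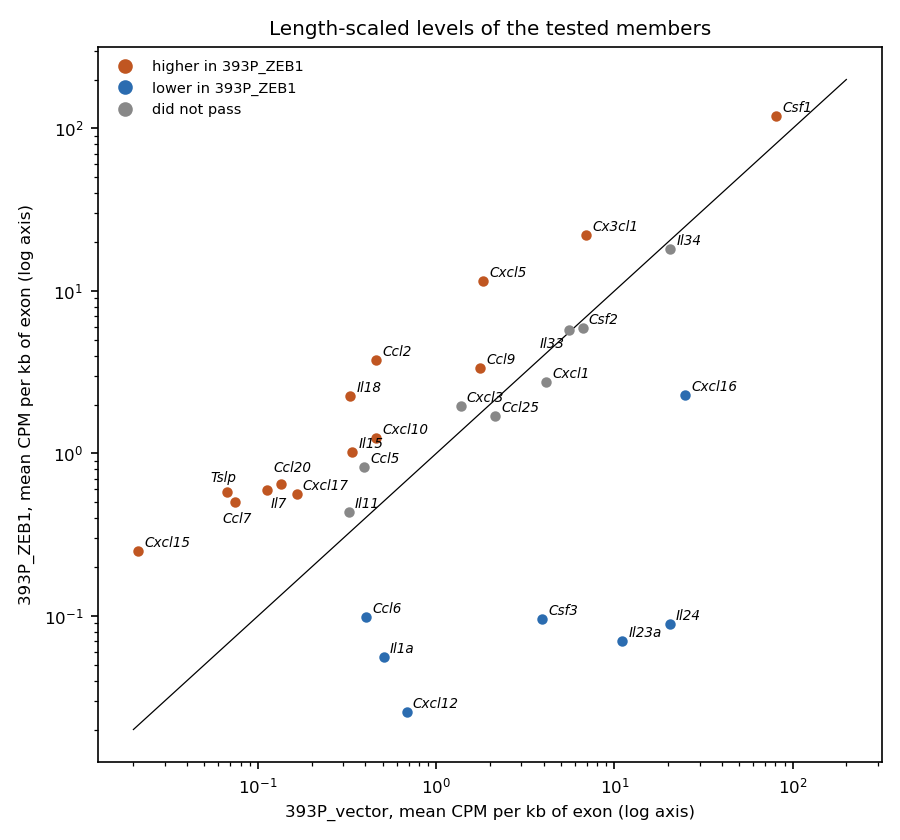
Mean level of each tested member in 393P_vector (x axis) and in 393P_ZEB1 (y axis), in CPM per kb of exon on log axes, with the line of equal levels. Csf1 lies at the top right at 81.0 and 118, and Il24, Il23a and Csf3 lie far below the line, near 0.1 in 393P_ZEB1.

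Receptors and other ligands were described from lists chosen with earlier results known. Some of these genes passed the filter through the group in which they were high, and how many did was not determined. Of 23 chemokine receptor rows only 3 were tested. Cxcr7, which binds Cxcl12 and scavenges it, fell from 85.6 ± 28.5 to 25.3 ± 1.66 CPM (SD, n = 3), at a log2 fold change of -1.76 (edgeR adjusted p = 0.000664). The receptors of the chemokines above were close to the limit of detection, with 11 counts in all for Cxcr4, 41 for Cxcr2, 22 for Cxcr6, 45 for Cx3cr1 and 22 for Ccr2. Of 50 cytokine receptor rows 30 were tested, with 11 higher and 7 lower, against 18.3% and 19.3% of all tested genes, a share of lower genes near that of all.

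The largest decreases among the receptors were those of Il5ra, Il18r1 and Il17re. Il18r1, the binding chain of the receptor for Il18, fell from 7.96 to 0.213 CPM (log2 fold change -5.22, edgeR adjusted p = 2e-06), while Il18 itself rose. Its partner chain Il18rap rose from 8.54 to 19.3 CPM (1.18 on the log2 scale). Il5ra fell from 6.45 to 0.148 CPM and Il17re from 4.17 to 0.111 CPM. The means of both in 393P_ZEB1 were below the filter's level of 0.17 CPM, so both passed it through 393P_vector. Lifr, the receptor of leukaemia inhibitory factor, rose from 2.25 to 11.8 CPM, Il12rb1 from 2.19 to 5.66 CPM, Il11ra1 from 2.6 to 6.2 CPM and Il17rd by 1.22 on the log2 scale. Il20rb, which Il24 uses, had a log2 fold change of 0.00 (edgeR adjusted p = 0.999).

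Of 31 rows of ligands and antagonists outside the rule 13 were tested, with 4 higher and 3 lower, again beside 18.3% and 19.3% of all tested genes. Il1rn encodes the antagonist that occupies the receptor of interleukin-1 without signalling. It had 0.636, 0.714 and 0.807 CPM in 393P_vector and 24.7, 23.1 and 21.9 CPM in 393P_ZEB1. The groups were far apart, at a log2 fold change of 5.0 ± 0.16 (SE, edgeR adjusted p = 7.7e-07), opposite in sign to that of Il1a. Kitl, the ligand of Kit, rose from 108 to 255 CPM, and Lif from 81.1 to 135 CPM. Ctf1, the cytokine cardiotrophin, fell from 2.05 to 0.21 CPM.

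**Figure D5:**
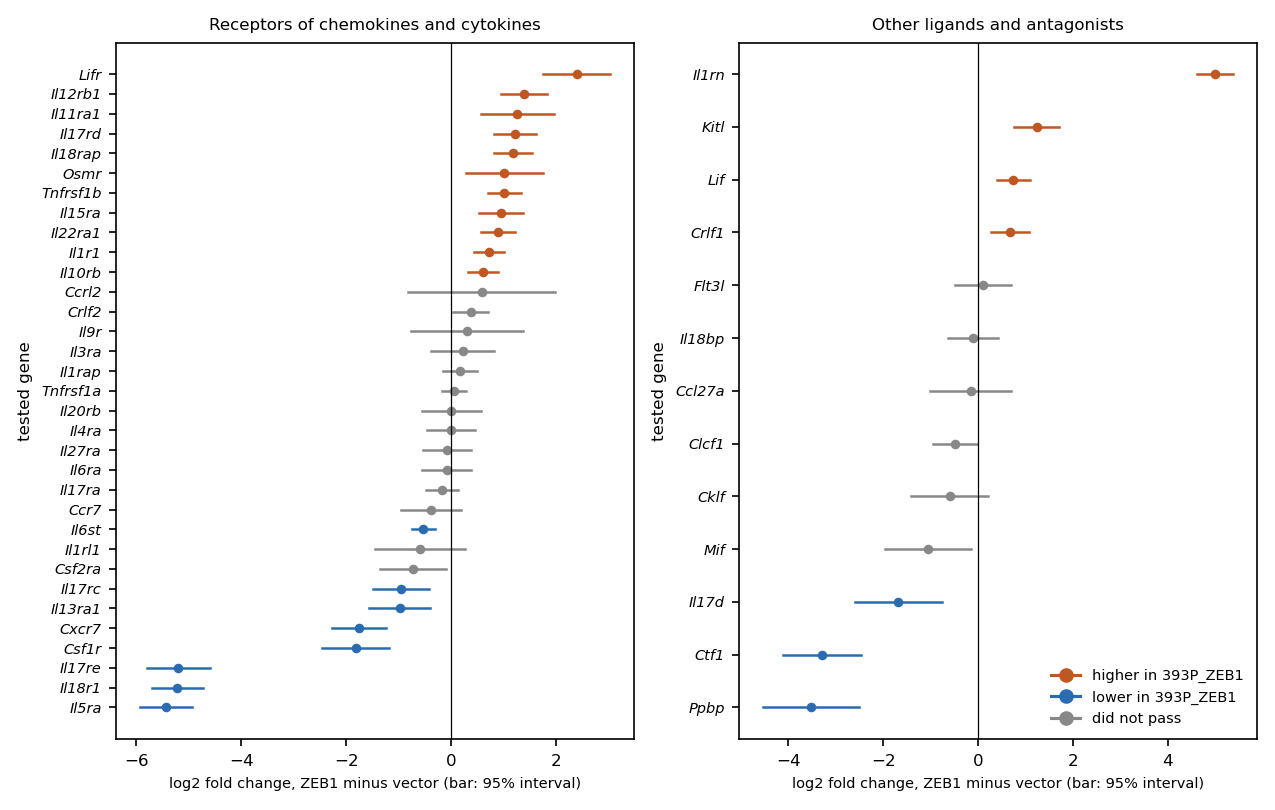
Log2 fold change (x axis, 393P_ZEB1 minus 393P_vector, with its 95% interval from edgeR) of the tested receptors (left) and of the tested ligands and antagonists outside the rule (right), orange for higher, blue for lower and grey for not past the test. Il1rn (5.0) and Lifr (2.39) are the highest of their panels, and Il5ra (-5.43) and Ppbp (-3.52) the lowest.

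NF-kappaB is a family of transcription factors that acts on many cytokine and chemokine genes. Of 34 genes of its pathway 34 were tested, with 4 higher and 6 lower (29.4%), against 37.6% of all tested genes. Tnfaip3, an inhibitor of the pathway, fell from 228 to 79.9 CPM (log2 fold change -1.51), and Icam1, an adhesion molecule and a target of it, fell from 24.9 to 6.51 CPM (-1.93). Irak3, another inhibitor, rose (2.02). The subunit genes Rela (-0.06) and Nfkb1 (0.24) and the inhibitor Nfkbia (0.04) did not pass the test.

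Promoter windows, 250 bases before to 50 bases after the start of the gene, were taken from RefSeq (GRCm38.p6) and could be matched for 15 of the 29 tested members. These were 6 of the 14 higher members, 3 of the 7 lower members (Cxcl12, Il1a and Ccl6) and 6 that did not pass. Il24, Il23a, Csf3 and Cxcl16 had no window and were not searched. Each was searched on both strands for CAGGTG, the E-box that ZEB1 binds, for TGANTCA, bound by AP-1, and for the NF-kappaB consensus. The E-box was found in 2 of the 15 (13.3%), against 17.5% of the windows of 8989 tested genes. AP-1 was found in 4 (26.7%) against 5.21%, and the NF-kappaB consensus in 6 (40%) against 5.38%. A match is a description of the letters and not a bound site. The NF-kappaB consensus is close to a palindrome, and the matches in Cxcl1 and Cxcl3 were found on both strands 1 base apart. Shown here, with the motif in capitals and read along the strand of the gene (a match on the other strand appears as its reverse complement), are those in members that rose and the corresponding ones of Cxcl1 and Cxcl3, which did not pass.
Ccl20 E-box, chr1:83116577-83116604, plus strand: tccccacccccCACCTGaccttcacacc
Ccl20 NF-kappaB, chr1:83116677-83116704, plus strand: atcaatgggGGAAAACCCCgggtgagaa
Ccl9 AP-1, chr11:83578673-83578699, minus strand: ttactctctcTGAATCAatttgaactt
Ccl9 NF-kappaB, chr11:83578653-83578680, minus strand: ttgaactttGGAAAGCCCCaagtcacct
Csf1 NF-kappaB, chr3:107760605-107760632, minus strand: ggccttgagGGAAAGTCCCtaggggcca
Cxcl10 NF-kappaB, chr5:92349030-92349057, minus strand: gaggggagaGGGAAATTCCaagttcatg
Cxcl10 NF-kappaB, chr5:92348974-92349001, minus strand: ggtttacagGGGACTTCCCtcgggttgc
Cxcl10 AP-1, chr5:92348947-92348973, minus strand: ggagccttgcTGAGTCAtctccaaagt
Cxcl1 NF-kappaB, chr5:90891165-90891192, plus strand: ctgtactccGGGAATTTCCctggcccgg
Cxcl3 NF-kappaB, chr5:90786019-90786046, plus strand: agctgcgggGGGAATTTCCccagcccgg
Cxcl1 and Cxcl3 hold the same 10 letters at nearly the same distance from their starts, 71 and 73 bases before them. The window of Ccl20 held both an E-box and an NF-kappaB match, and its gene rose. The other E-box match, in Csf2, is not shown, and Csf2 did not pass the test. AP-1 matches in Il11, which did not pass, and in Il1a, which fell, are not shown either. None of the motifs was found in the windows of Cx3cl1, Cxcl15, Cxcl12 and Ccl6, of which the first pair rose and the second pair fell.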

How the data were processed

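RNA sequencing of 3 393P_vector and 3 393P_ZEB1 samples was analysed. The authors deposited, for each sample, the unnormalised count of reads on 24214 RefSeq features, with exon lengths and GRCm38 coordinates. The RPKM values that the authors deposited beside them were not used. Which programs aligned and counted the reads is not given in the sources used here. Counts were tested in R 4.3.3 with edgeR 4.0.16 (filterByExpr with a minimum count of 10, which left 13892 genes, TMM, robust quasi-likelihood fit, condition as the only term). The Benjamini-Hochberg adjustment ran over all tested genes, with a threshold of 0.05. The SE of a log2 fold change was its size divided by the square root of the F statistic. CPM used TMM library sizes. The biological coefficient of variation was 0.184. The exact permutation test, two-sided, used log2(CPM + 0.05). The procedure was tested on simulated data before use. These data had a uniform dispersion and no outlying library, and only well counted genes were changed, so the low members were not covered.

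The members and the lists of receptors, other ligands, pathway genes, markers and motifs were chosen with earlier results of these data known. Members that passed the test or reached a mean of 1 CPM in either group are named with every value, and partner genes that passed at a mean of at least 1 CPM with at most the 4 largest changes each way. Il18rap, Il20rb, Csf1r, the immune cell markers Cd68, Itgam, Itgax and Cd4, and the untested receptors were named after their values were seen. So were the uncalled NF-kappaB genes and the genes that overlap or neighbour members. Alternatives used limma 3.58.1, DESeq2 1.42.0, other filters, scalings and thresholds, and each sample left out in turn. Further tools were Python 3.11.15, NumPy 2.4.6, pandas 2.3.3 and matplotlib 3.10.9.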

Additional observations from a re-analysis of the deposited data

How the results depend on the processing

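Of the 21 called members, 14 passed the test under every alternative that gave one. Csf1, Cxcl10, Cxcl17, Il15, Ccl7, Ccl9 and Ccl6 lost the call in at least 1. The count of members higher, 14, became 7 with at least 10 counts in every sample, 8 against a fold change of 1.5 and 9 at a threshold of 0.01. The count of members lower, 7, became 1 with at least 10 counts in every sample. That filter removes every gene with fewer than 10 counts in any library, including genes that are low in only 1 line. Leaving out each sample gave 10 to 17 members higher and 6 to 8 lower. Without vector replicate 3, Cxcl3 (log2 fold change 0.76, edgeR adjusted p = 0.0165), Ccl5 (1.73, 0.0304), Il34 (-0.31, 0.0434) and Il33 (0.36, 0.0349) passed, as did Cxcl1 (-0.83, 0.0481) without vector replicate 2. With all samples, limma voom with sample weights also called Cxcl3 (adjusted p = 0.0145), Ccl5 (0.00676) and Il33 (0.0428), for 17 members higher. The sign of Il33 turned without vector replicate 1 (-0.0839), vector replicate 2 (-0.0852) or ZEB1 replicate 1 (-0.0334).

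Of all genes, 2539 higher and 2679 lower became 1081 and 1118 against a fold change of 1.5, 1584 and 1545 at a threshold of 0.01, and 3977 and 4094 with limma voom and sample weights. With each sample left out they ranged from 1861 to 3700 and from 1784 to 3776. Partner genes, 19 higher and 17 lower, became 10 and 10 against a fold change of 1.5, with 11 lower at a threshold of 0.01, and ranged from 16 to 24 and from 11 to 24 with each sample left out. The causes of these shifts were not tested.

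With the replicate number as a block 13 members were higher and 7 lower, the call lost being Cxcl17 (1.74, edgeR adjusted p = 0.0628). Samples of equal number correlated in their deviations at r between -0.205 and 0.279 and those of unequal number between -0.182 and 0.222. Of the 6 samples, 2 correlated best with their own number. With 3 samples per group these values cannot decide whether the numbers pair the samples. Values below about 10 counts per library limit the precision of the low members.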

Other observations

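Among the members left out by the filter, Cxcl2, a neutrophil chemoattractant, had 9, 10 and 5 counts in 393P_vector and 0, 3 and 2 in 393P_ZEB1, with an adjusted p of 0.0901 in the edgeR fit without a filter. It was named after its values were seen.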
